A study of Mus musculus with 6 samples.

Results

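The genes described here encode 9 transcription factors of the myeloid lineage: Spi1, Cebpa, Cebpb, Cebpd, Maf, Klf2, Klf4, Runx1 and Nr4a1. They were taken from the table of read counts by gene symbol, each symbol matching 1 of the 54532 genes in the table. All 9 passed the filter on low counts that left 14333 genes for testing. RNA was sequenced from mouse bone marrow-derived macrophages, which are grown in culture from marrow precursors. The XKO group (genotype Xbp1ΔMf) lacked Xbp1 in macrophages by its label, and the XWT group (genotype Xbp1FL/FL) carried floxed but intact Xbp1 alleles, with 3 libraries each. Both groups were C57BL/6, 32 to 34 weeks of age by the labels, and in both the cells were primed with lipopolysaccharide (LPS) and then held for 48 h in medium that primary hepatocytes of wild-type mice had conditioned. Neither the Cre driver behind the deletion nor whether the libraries of a group stem from different animals or cultures is stated in the labels. P-values therefore measure the spread between these libraries, which may be technical. The only comparison of the study is XKO against XWT.

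Macrophage identity is built by a small set of factors that act on the same enhancers. PU.1, the product of Spi1, opens chromatin across the myeloid genome, RUNX1 acts with it early in blood development, and the C/EBP proteins bind beside PU.1: C/EBPα in precursors, C/EBPβ and C/EBPδ after inflammatory signals. MAF and KLF proteins tune the mature cell, MAF by limiting self-renewal, KLF2 and KLF4 by restraining or redirecting activation. NR4A1 is an orphan nuclear receptor whose gene is induced within minutes of many stimuli and which is needed for patrolling monocytes with little Ly6C. In bulk RNA of this kind, fewer cells of a type and less RNA per cell cannot be told apart.

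Xbp1 itself stood at 76.8, 79.4 and 76.5 CPM (counts relative to the library total, adjusted by TMM) in XKO and at 159, 157 and 132 CPM in XWT. XKO was lower by a log2 fold change of -0.94 ± 0.077 (SE; edgeR quasi-likelihood test, adjusted p = 1.93e-06), and the groups did not overlap. The count covers the whole gene, so it also holds reads from outside any deleted exon. Libraries held 29965384 to 30184033 counts in XKO and 28354866 to 30891729 in XWT. Principal component 1 held 61.4% of the variance, and on it the XKO libraries lay between -33.8 and -29.2, while XWT 1, XWT 2 and XWT 3 lay at 36.9, 38.6 and 18.2, so XWT 3 stood apart from its group on the side of XKO. Values without XWT 3 are given beside the results they change. Macrophage markers were present in every library, the 7 hepatocyte markers found in the table had 0 counts in each, and the T cell genes Cd3d and Cd3e, the red cell genes Hba-a1 and Hbb-bs, and the mast cell gene Ms4a2 were also at 0. Stromal markers were not absent: their summed level was 67.2 to 81.8 CPM in XKO and 692 to 800 CPM in XWT. Neutrophil markers summed to 173 to 177 CPM in XKO and 139 to 159 CPM in XWT, and lymphocyte markers to 19.5 to 23.4 CPM in XKO and 41.2 to 55.3 CPM in XWT. Most of the lymphocyte sum was Ighm, an immunoglobulin heavy chain gene, with 18.6 ± 1.89 CPM in XKO and 44.8 ± 7.36 CPM in XWT (SD, n = 3 each), and 1 other lymphocyte marker was tested, Cd4, which was also lower. The B cell gene Ms4a1, named after its values were seen, had 6, 8 and 4 counts in XKO and 1, 0 and 1 in XWT. Summed endothelial markers lay at 93.1 to 99.6 CPM in XKO and 88.3 to 95.8 CPM in XWT, dendritic cell markers at 51.1 to 61.0 CPM in XKO and 48.4 to 54.4 CPM in XWT, mast cell and basophil markers at 0.914 to 1.55 CPM in XKO and 0.640 to 1.15 CPM in XWT, and red cell or megakaryocyte markers at 50.8 to 53.9 CPM in XKO and 48.4 to 52.7 CPM in XWT. These sums overlapped between the groups. Most of the endothelial sum was Vwf (means of 86.0 CPM in XKO and 78.7 CPM in XWT). Most of the dendritic cell sum was Itgax (54.9 and 49.6 CPM). Pf4 was most of the red cell or megakaryocyte sum (51.7 and 49.2 CPM), and Csf3r of the neutrophil sum (111 and 115 CPM). These genes were named after their values were seen. Of 4 tested endothelial markers 1, Pecam1, was lower (6.31 CPM in XKO, 9.17 CPM in XWT). The part of these other cells in the values of the 9 factors was not tested.

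The start regions of 3 of the factors are shown: that of Nr4a1, which was called higher, and those of Cebpb and Cebpa. The ratio of Cebpb to Cebpa did not overlap between the groups (exact permutation p = 0.1, or 0.2 after adjustment over 4 ratios). The letters TGACG, shared by binding sites of CREB, ATF and XBP1 proteins, are marked in them. The 3 were picked with their fold changes and motif numbers known, so no relation between motif number and direction can be read from them. Promoter entries of RefSeq (GRCm38.p6) were found for 6 of the 9 genes, with none for Spi1, Cebpd and Maf. Each line gives the 250 bases before the start in the direction of the gene, with TGACG on either strand in capitals (CGTCA where it lies on the other strand). For Nr4a1 this start lies inside the gene's coordinates, which begin at 101254269. The region before that first position was not scanned.
Nr4a1 (chr15:101266596-101266845, plus strand): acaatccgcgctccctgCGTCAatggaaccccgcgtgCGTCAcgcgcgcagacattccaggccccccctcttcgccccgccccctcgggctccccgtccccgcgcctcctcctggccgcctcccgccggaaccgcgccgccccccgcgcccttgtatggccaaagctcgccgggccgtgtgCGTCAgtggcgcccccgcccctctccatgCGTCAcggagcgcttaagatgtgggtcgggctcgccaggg
Cebpb (chr2:167688665-167688914, plus strand): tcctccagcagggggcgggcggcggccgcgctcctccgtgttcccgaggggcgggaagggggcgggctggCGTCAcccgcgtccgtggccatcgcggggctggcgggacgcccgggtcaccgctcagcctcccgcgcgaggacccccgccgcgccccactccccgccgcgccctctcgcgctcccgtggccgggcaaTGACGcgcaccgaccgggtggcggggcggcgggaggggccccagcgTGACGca
Cebpa (chr7:35119043-35119292, plus strand): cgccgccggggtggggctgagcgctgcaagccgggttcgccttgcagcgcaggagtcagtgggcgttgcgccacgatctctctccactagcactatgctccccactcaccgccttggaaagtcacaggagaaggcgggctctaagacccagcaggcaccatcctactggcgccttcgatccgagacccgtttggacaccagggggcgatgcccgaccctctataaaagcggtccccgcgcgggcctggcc
The Nr4a1 region holds 4 copies of TGACG, at 233, 213, 69 and 40 bases before the start, all on the other strand, and each is part of a longer match to TGACGCA. The Cebpb region holds 3, at 180, 53 and 7 bases before the start, of which the last is part of TGACGCA. The Cebpa region holds 0, the Klf4 region (log2 fold change 0.27) and the Klf2 region (-0.01) hold 1 each, and 0 were found at either start of Runx1 (0.05). Over all 32851 promoter entries of the same length, 17.8% held TGACG on either strand and 45 entries (0.137%) held 4 or more. TGACGCA was found in 1.75% of entries, and 4 or more copies of it in 1 entry, that of Nr4a1. Neither TGACGTCA, the full palindrome (1.55% of entries), nor TGACGTG, the start of a known XBP1 site (1.65%), was found in the entries of the 6 genes. CCAAT, in 33.8% of entries, was found 2 times at each Runx1 start and 0 times in the other 5 genes. CACCC, a core of KLF sites and in 52.0% of entries, was found 2 times in Cebpb, 1 time each in Cebpa and Klf2, 2 times at 1 of the Runx1 starts and 0 times in Nr4a1 and Klf4. These motifs were chosen after expression values had been seen, and a match describes letters, not a bound site.

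Compared per gene length, in FPKM as deposited by the authors, the 9 genes spanned more than 2 orders of magnitude. Spi1 led with 168 to 170 FPKM in XKO and 177 to 222 FPKM in XWT, and ranked 2 in both groups among the 1469 genes to which the table assigns a transcription factor family. Cebpb followed (91.5 to 94.8 FPKM in XKO, 58.0 to 89.3 FPKM in XWT). Cebpa came next (49.6 to 51.8 FPKM in XKO, 52.5 to 67.8 FPKM in XWT), then Maf (45.9 to 51.7 FPKM in XKO, 49.6 to 58.5 FPKM in XWT). These 2 overlapped with each other in both groups, and Cebpa overlapped with Cebpb in XWT only. Klf2 (13.9 to 15.0 FPKM in XKO, 12.7 to 17.2 FPKM in XWT) and Cebpd (12.3 to 13.3 FPKM in XKO, 14.3 to 18.8 FPKM in XWT) formed a middle pair whose order was Klf2 above Cebpd in XKO, without overlap, and whose ranges overlapped in XWT. Runx1 (9.15 to 9.79 FPKM in XKO, 8.86 to 9.53 FPKM in XWT), Klf4 (4.91 to 4.98 FPKM in XKO, 3.66 to 4.39 FPKM in XWT) and Nr4a1 (1.31 to 1.47 FPKM in XKO, 0.847 to 0.995 FPKM in XWT) were the lowest and did not overlap with each other in either group. By rank among the factor genes, Nr4a1 stood at 590 in XKO and 650 in XWT. XKO libraries were more alike than XWT libraries over all genes, where the chi-square per gene of a pair was 2.80 to 4.54 in XKO and 19.3 to 21.7 in XWT. The 9 factors shared this: coefficients of variation of the CPM ran from 0.674% (Spi1) to 7.03% (Maf) in XKO and from 3.96% (Runx1) to 21.0% (Cebpb) in XWT.

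**Figure D1:**
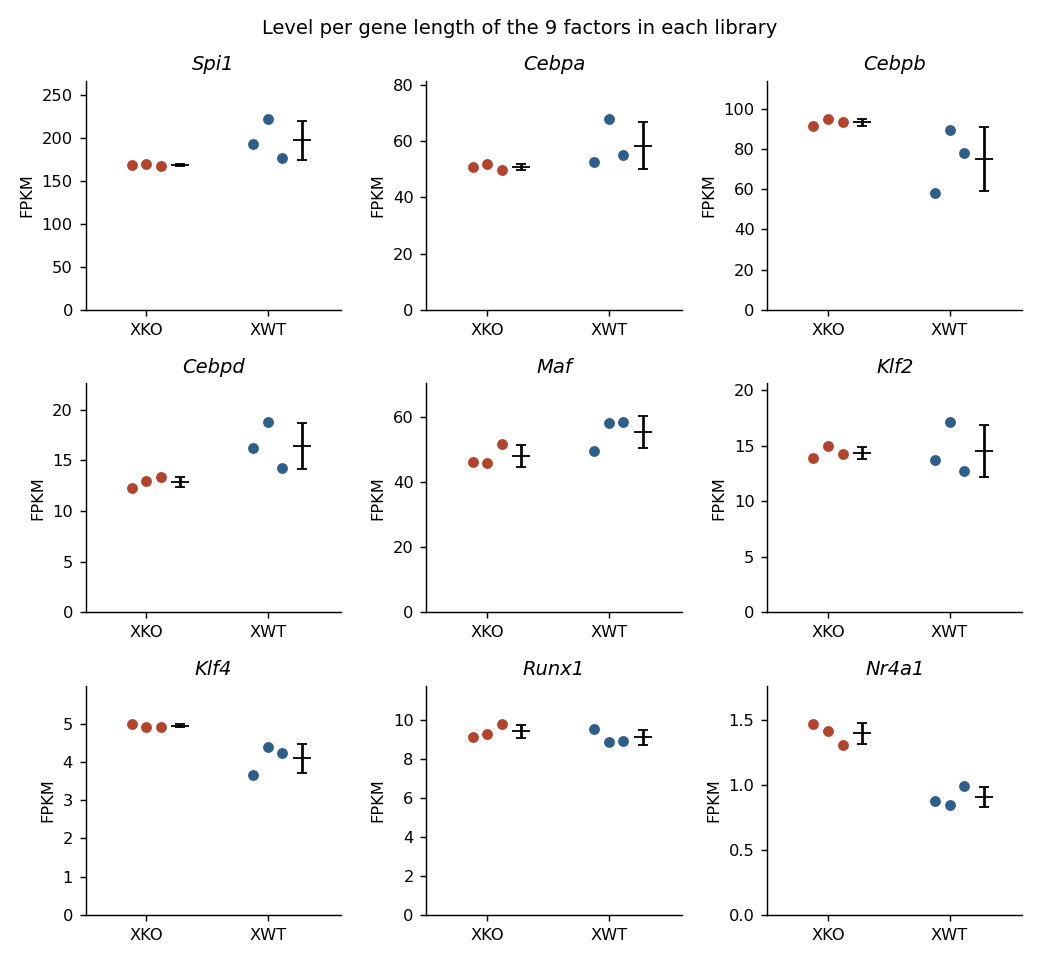
Level of each of the 9 factor genes in FPKM (linear axis from 0), with 1 point per library, XKO left and XWT right, and the mean with its SD (n = 3) beside the points. Spi1 was the most abundant at 168 to 222 FPKM and Nr4a1 the least at 0.847 to 1.47 FPKM. The XWT points scatter more than the XKO points except for Nr4a1 (SD 0.0802 FPKM in XKO, 0.0782 FPKM in XWT). For Runx1 the difference is small (SD 0.333 FPKM in XKO, 0.369 FPKM in XWT).

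Of the 9 genes, Nr4a1 was higher in XKO and Cebpd lower, both with adjusted p-values under 0.05, and 7 were not called (edgeR quasi-likelihood test, adjusted over all tested genes). Over all tested genes 6.00% were higher and 7.99% lower, 14.0% in either direction, and 2 of 9 is close to that background. Of the 858 tested genes with an assigned factor family, 45 were higher and 50 lower (11.1%). Groups did not overlap for 6 of the 9, against 36.2% of all tested genes and 33.8% of the factor genes: Nr4a1, Cebpb and Klf4 were above XWT in every XKO library, and Spi1, Cebpa and Cebpd below it. The median log2 fold change of the 9 was -0.01, beside 0.00 for all tested genes and 0.04 for the factor genes, and the median absolute log2 fold change was 0.22 against 0.17 for all tested genes. An unadjusted p under 0.05 was reached by 7 of the 9 and by 30.8% of all tested genes. The authors' deposited table, where 9.02% of 23413 genes have an adjusted p under 0.05, has 3 of the 9 under it: Nr4a1, Cebpd and Spi1.

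Spi1 (ENSMUSG00000002111, chromosome 2 from 91082390 to 91115756, plus strand) encodes PU.1, the ETS factor on which macrophage development depends. Its level was 458, 461 and 455 CPM in XKO and 520, 597 and 482 CPM in XWT. All 3 XKO libraries lay below the lowest XWT library, which was XWT 3. XKO differed from XWT by a log2 fold change of -0.22 ± 0.078 (SE), with a 95% interval from -0.39 to -0.05, and Spi1 was not called (edgeR adjusted p = 0.0764). The authors' deposited table gives -0.22 with an adjusted p of 0.0452. Without XWT 3 the value was -0.29 and called (edgeR adjusted p = 0.00611), without XWT 2 it was -0.13, and with GC and length trends removed it was -0.08 (adjusted p = 0.509).

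Among 16 tested ETS relatives of Spi1, 0 were higher and 3 lower, with a median log2 fold change of 0.00. Over all tested genes 6.00% were higher and 7.99% lower, and the counts of each list below stand beside these shares. Ets1, best known from lymphoid and stromal cells, averaged 3.74 ± 0.336 CPM in XKO and 5.63 ± 0.367 CPM in XWT (SD, n = 3 each; log2 fold change -0.59), beside the lower stromal markers and Ighm given above; their part in it was not tested. Etv5, a target of growth factor signals, averaged 20.3 ± 0.994 CPM in XKO and 25.7 ± 2.80 CPM in XWT (-0.34). Elf4, an activator of innate immune genes, averaged 125 ± 1.97 CPM in XKO and 149 ± 12.1 CPM in XWT (-0.24). The 3 lower relatives became 0 without XKO 1, XKO 2 or XKO 3 and 1 without XWT 2 or with scaling by library size alone, a setting under which 2 relatives were also higher. In addition, 1 was higher without XWT 1 or XWT 3, with quality weights or with GC and length trends removed.

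Genes that PU.1 is known to activate moved both ways. Of 20 tested, 2 were higher and 3 lower, with a median of -0.12. The mannose receptor gene Mrc1 stood at 59.1, 53.3 and 61.8 CPM in XKO and at 138, 149 and 135 CPM in XWT (log2 fold change -1.27 ± 0.074, SE), and lysozyme gene Lyz2 fell by 1.13 and the integrin gene Itgb2 by 0.32 on the log2 scale. Csf2ra, a chain of the GM-CSF receptor, rose by 0.32 and the LPS receptor gene Tlr4 by 0.22. Both rises lost their call without any 1 library other than XWT 3, and Itgb2 without XKO 1, XKO 2 or XKO 3. The 3 lower genes became 11 without XWT 3, a setting under which lower calls over all tested genes rose from 1145 to 2164. Of 10 macrophage markers 1, Lyz2, was lower and 0 were higher (median -0.17), and the 1 became 7 without XWT 3. Any part of the Cre driver, which the labels do not state, in the lower Lyz2 was not tested.

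Runx1 (ENSMUSG00000022952, chromosome 16 from 92601466 to 92826149, minus strand) encodes a DNA-binding subunit of core binding factor. Its level was 111, 113 and 118 CPM in XKO and 115, 106 and 108 CPM in XWT. The groups overlapped, with XWT 1 inside the XKO range. This gave a log2 fold change of 0.05 ± 0.064 (SE) and a 95% interval from -0.08 to 0.19 (edgeR adjusted p = 0.603). Of 7 tested genes of the RUNX complex 0 were higher and 0 lower, with a median of -0.00; without XWT 3, 1 was lower, and with GC and length trends removed 1 was higher. Cbfb, its non-DNA-binding partner, named after its value was seen, averaged 125 ± 2.67 CPM in XKO and 122 ± 3.37 CPM in XWT (SD, n = 3 each; log2 fold change 0.03, edgeR adjusted p = 0.764).

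The 3 C/EBP genes did not share a direction. Cebpa (ENSMUSG00000034957, chromosome 7 from 35119293 to 35121928, plus strand), the factor of granulocyte and monocyte precursors, stood at 135, 137 and 131 CPM in XKO and at 138, 178 and 146 CPM in XWT. The highest XKO library lay just below XWT 1, and XWT 2 was well above the other XWT libraries. As a log2 fold change this was -0.20 ± 0.085 (SE), with a 95% interval from -0.38 to -0.01, and Cebpa was not called (edgeR adjusted p = 0.137); without XWT 2 it was -0.08, and with GC and length trends removed -0.00.

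Cebpb (ENSMUSG00000056501, chromosome 2 from 167688915 to 167690418, plus strand) takes part in macrophage activation and in the granulocyte output of emergencies. It stood at 138, 143 and 141 CPM in XKO and at 87.2, 134 and 118 CPM in XWT. XWT 1 was far below the other XWT libraries, and XWT 2 came close to XKO without reaching it. In the fit the log2 fold change came to 0.32 ± 0.127 (SE), with a 95% interval from 0.03 to 0.60, and Cebpb was not called (edgeR adjusted p = 0.126). It was called without XWT 2 (0.45, adjusted p = 0.0369), with DESeq2 (adjusted p = 0.0420) and with GC and length trends removed (0.56, adjusted p = 0.000261), and was 0.16 without XWT 1. Its gene overlaps 908 bases of Tmem189 on the opposite strand, which had 3030 to 3616 counts per library, and unless reads were counted by strand, which is not stated, those of the 2 genes cannot be told apart where they overlap.

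Cebpd (ENSMUSG00000071637, chromosome 16 from 15887286 to 15891031, plus strand), which amplifies the response of mouse macrophages to lasting LPS signals, was the member that fell. It stood at 46.3, 48.7 and 50.3 CPM in XKO and at 60.8, 70.3 and 53.8 CPM in XWT. Every XKO library was below every XWT library, and XWT 3 was the nearest to XKO. The mean was 48.4 ± 1.99 CPM in XKO and 61.6 ± 8.26 CPM in XWT (SD, n = 3 each), a 1.27-fold lower level, with a log2 fold change of -0.35 ± 0.090 (SE) and a 95% interval from -0.54 to -0.15 (edgeR adjusted p = 0.0222). The authors' deposited table gives -0.35 with an adjusted p of 0.00733. The call was lost without any 1 library other than XWT 3 (edgeR adjusted p from 0.0503 without XWT 1 to 0.106 without XKO 1; 0.00195 without XWT 3) and with scaling by library size alone (-0.28, adjusted p = 0.0521). Cebpd overlaps 1808 bases of Spidr on the opposite strand, which had 647 to 715 counts per library.

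Ratios between the C/EBP genes within a library do not depend on how libraries are scaled. Per base of gene length, Cebpb over Cebpa was 1.80, 1.83 and 1.88 in XKO and 1.10, 1.32 and 1.42 in XWT, so that Cebpb exceeded Cebpa in all 6 libraries, by more in every XKO library. The means were 1.84 ± 0.0420 in XKO and 1.28 ± 0.159 in XWT (SD, n = 3 each), a log2 difference of 0.53. Cebpd over Cebpb was 0.135, 0.136 and 0.143 in XKO and 0.280, 0.211 and 0.183 in XWT, a log2 difference of -0.68 and again without overlap. Cebpd over Cebpa overlapped between the groups (0.242 to 0.269 in XKO, 0.260 to 0.309 in XWT). Both separations gave p = 0.1 in an exact two-sided permutation test over 20 splits, the smallest p that 3 libraries against 3 allow, and 0.2 after adjustment over 4 ratios. The 4 ratios were chosen after the values had been seen.

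Of 6 tested C/EBP relatives and inhibitors, 1 was higher (2 without XWT 3) and 0 lower (median 0.05). It was Ddit3, which encodes CHOP, a partner that blocks C/EBP binding to its usual sites and a gene of the stress response of the endoplasmic reticulum. Ddit3 stood at 27.4, 29.2 and 29.0 CPM in XKO and at 17.6, 17.8 and 18.2 CPM in XWT, with no overlap and little spread in either group (log2 fold change 0.67 ± 0.079, SE; edgeR adjusted p = 7.01e-05). Of 13 tested genes known to be activated by C/EBP proteins, 7 were higher, 0 lower and 6 not called, with 10 positive values and a median log2 fold change of 0.78 beside 0.00 for all tested genes. The share called higher over all tested genes was 6.00%. The acute phase gene Saa3 averaged 773 ± 87.1 CPM in XKO and 492 ± 41.5 CPM in XWT, the collagenase gene Mmp8 20.1 ± 1.03 CPM in XKO and 11.7 ± 1.81 CPM in XWT, and the lactoferrin gene Ltf 2.79 ± 0.166 CPM in XKO and 0.957 ± 0.198 CPM in XWT (SD, n = 3 each; log2 fold changes 0.65, 0.78 and 1.54). Of these 7, 5 are granule or secreted protein genes that also stand on the list of neutrophil markers (Camp, Lcn2, Ltf, Mmp8 and Ngp), of which 7 of 10 tested were higher and 0 lower (median 0.89). The 2 outside that list were Saa3 and the prostaglandin synthase gene Ptgs2. Ptgs2, named after its value was seen, stood at 7.93, 10.05 and 8.49 CPM in XKO and 5.12, 4.38 and 4.64 CPM in XWT, without overlap. The 2 lists share 8 genes, so they could not move independently. Csf3r, on both lists and named after its value was seen, averaged 111 ± 2.32 CPM in XKO and 115 ± 5.94 CPM in XWT. It was not called (edgeR adjusted p = 0.619). The part of neutrophils in the C/EBP list was not tested. With the stricter filter on low counts, which left 7 of the 13 C/EBP targets for testing, 4 were higher.

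Maf (ENSMUSG00000055435, chromosome 8 from 115682942 to 115707794, minus strand) encodes c-Maf, an activator of Il10 and of genes of resident macrophages. It stood at 381, 380 and 429 CPM in XKO and at 409, 476 and 486 CPM in XWT. The groups overlapped, since XKO 3 lay above XWT 1. Expressed as a log2 fold change, the difference was -0.20 ± 0.080 (SE), with a 95% interval from -0.38 to -0.03 (edgeR adjusted p = 0.103). Without XWT 1 it was -0.28 and called (adjusted p = 0.0296). Of 5 tested relatives, 2 small MAF genes were higher and 0 lower (median 0.10). Maff, which lacks an activation domain, stood at 6.35, 5.76 and 5.94 CPM in XKO and at 3.41, 3.60 and 4.002 CPM in XWT, without overlap (log2 fold change 0.71 ± 0.144, SE; edgeR adjusted p = 0.00542). Mafg averaged 194 ± 4.52 CPM in XKO and 158 ± 17.2 CPM in XWT (log2 fold change 0.30), a call lost without any 1 library other than XWT 3.

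Genes listed as MAF targets in macrophages were lower in most of the tested members, while Maf itself was not called. Of 13 tested, 9 were lower and 0 higher, 0 had a positive log2 fold change, and the median was -0.69 beside 0.00 for all tested genes. The share called lower over all tested genes was 7.99%. Cd5l, a secreted scavenger receptor of tissue macrophages, stood at 35.8, 37.5 and 40.1 CPM in XKO and at 103, 128 and 103 CPM in XWT, with every XKO library far below XWT (log2 fold change -1.56 ± 0.090, SE; edgeR adjusted p = 5.91e-08). The folate receptor gene Folr2 stood at 13.8, 15.2 and 15.0 CPM in XKO and at 38.7, 37.8 and 31.2 CPM in XWT (-1.29 ± 0.097, SE). Il10, named after its value was seen, averaged 4.12 ± 0.647 CPM in XKO and 4.81 ± 0.863 CPM in XWT. Its groups overlapped and it was not called (log2 fold change -0.22, edgeR adjusted p = 0.433). Mrc1, also counted among the PU.1 targets and the KLF targets, is on this list too. The count ran from 8 to 9 lower when single libraries were left out. Stromal markers, Ighm and Cd4 fell between the same groups, and their part in it was not tested.

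Klf2 (ENSMUSG00000055148, chromosome 8 from 72319033 to 72321656, plus strand), which keeps monocytes quiescent, stood at 25.7, 27.8 and 26.5 CPM in XKO and at 25.4, 31.6 and 23.6 CPM in XWT. All 3 XKO libraries lay inside the XWT range. That is a log2 fold change of -0.01 ± 0.102 (SE) and a 95% interval from -0.23 to 0.21 (edgeR adjusted p = 0.953), and its sign depended on the setting: it was 0.06 with scaling by library size alone, 0.12 without XWT 2 and 0.15 with GC and length trends removed. Klf4 (ENSMUSG00000003032, chromosome 4 from 55527143 to 55532466, minus strand), needed for monocyte differentiation and for alternative activation in mice, stood at 15.3, 15.1 and 15.1 CPM in XKO and at 11.2, 13.3 and 12.998 CPM in XWT. Every XKO library was above every XWT library, with XWT 1 the lowest. The fitted difference was 0.27 ± 0.100 on the log2 scale (SE), with a 95% interval from 0.06 to 0.49, and Klf4 was not called (edgeR adjusted p = 0.0818), except with GC and length trends removed (0.36, adjusted p = 0.0134). Klf4 over Klf2 per base was 0.359, 0.328 and 0.345 in XKO and 0.267, 0.256 and 0.333 in XWT, which overlapped (exact permutation p = 0.2).

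Of 9 tested KLF relatives, 3 were higher and 0 lower (median 0.07), where 6.00% of all tested genes were higher. Klf7 averaged 21.8 ± 1.28 CPM in XKO and 15.3 ± 1.89 CPM in XWT, Klf9, a gene induced by glucocorticoids, 6.21 ± 0.166 CPM in XKO and 4.24 ± 0.160 CPM in XWT, and Klf6, which promotes inflammatory gene expression in macrophages, 281 ± 12.05 CPM in XKO and 238 ± 10.96 CPM in XWT (SD, n = 3 each). The log2 fold changes were 0.51, 0.55 and 0.24, and the 3 became 1 without XKO 1, XKO 2 or XKO 3. Among 9 tested target genes of KLF2 and KLF4, 2 were higher and 1 lower (median -0.17), and without XWT 3 there were 3 lower. The integrin gene Itgb7, whose expression depends on KLF2 in mouse lymphocytes, averaged 89.8 ± 4.35 CPM in XKO and 59.8 ± 1.64 CPM in XWT (log2 fold change 0.59). Chil3, a gene of alternative activation, averaged 3.18 ± 0.0642 CPM in XKO and 1.53 ± 0.125 CPM in XWT (1.06), while Mrc1, of the same programme, fell. Retnla, another gene of it, had 0 counts in all libraries.

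Nr4a1 (ENSMUSG00000023034, chromosome 15 from 101254269 to 101274795, plus strand) had the largest fold change of the 9 and the fewest reads, 161, 154 and 142 counts in XKO and 83, 88 and 110 counts in XWT. Scaled, these were 5.19, 5.01 and 4.64 CPM in XKO and 3.08, 2.96 and 3.52 CPM in XWT, so that the lowest XKO library stayed above the highest XWT library, XWT 3. The mean was 4.94 ± 0.281 CPM in XKO and 3.19 ± 0.294 CPM in XWT (SD, n = 3 each), a 1.55-fold higher level, with a log2 fold change of 0.63 ± 0.155 (SE) and a 95% interval from 0.30 to 0.96 (edgeR adjusted p = 0.0169). The authors' deposited table gives 0.63 with an adjusted p of 0.0227. The call was lost without XKO 1 (edgeR adjusted p = 0.0888), XKO 2 (0.0825), XKO 3 (0.0523) or XWT 2 (0.0540) and held without XWT 1 or XWT 3, and the gene did not pass the stricter filter. The region with 4 copies of TGACG shown above lies before a start inside these coordinates.

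Both other genes of the NR4A family had higher means in XKO at low levels. Nr4a3 had 47, 28 and 38 counts in XKO and 13, 13 and 19 counts in XWT, or 1.51, 0.911 and 1.24 CPM in XKO and 0.482, 0.438 and 0.608 CPM in XWT, without overlap (log2 fold change 1.25 ± 0.333, SE; edgeR adjusted p = 0.0252), and its call was lost without XKO 1, XKO 3, XWT 1 or XWT 2. Nr4a2, named after its value was seen, averaged 1.11 ± 0.210 CPM in XKO and 0.904 ± 0.140 CPM in XWT and was not called (0.28 ± 0.299, SE; edgeR adjusted p = 0.553). Of 8 tested genes that mark monocytes dependent on NR4A1, 2 were lower and 0 higher (median 0.13). Spn, which encodes CD43, averaged 38.4 ± 0.996 CPM in XKO and 53.1 ± 4.41 CPM in XWT, and the factor gene Pou2f2 averaged 199 ± 4.42 CPM in XKO and 230 ± 5.63 CPM in XWT (SD, n = 3 each; log2 fold changes -0.47 and -0.21). The 2 became 1 without XKO 1, XKO 2, XKO 3 or XWT 1, with scaling by library size alone, with GC and length trends removed and with the replicate block. Without XWT 1 or with library size alone 2 were higher, and 1 was higher without XWT 3, with no filter, the stricter filter, DESeq2, limma-voom or quality weights.

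**Figure D2:**
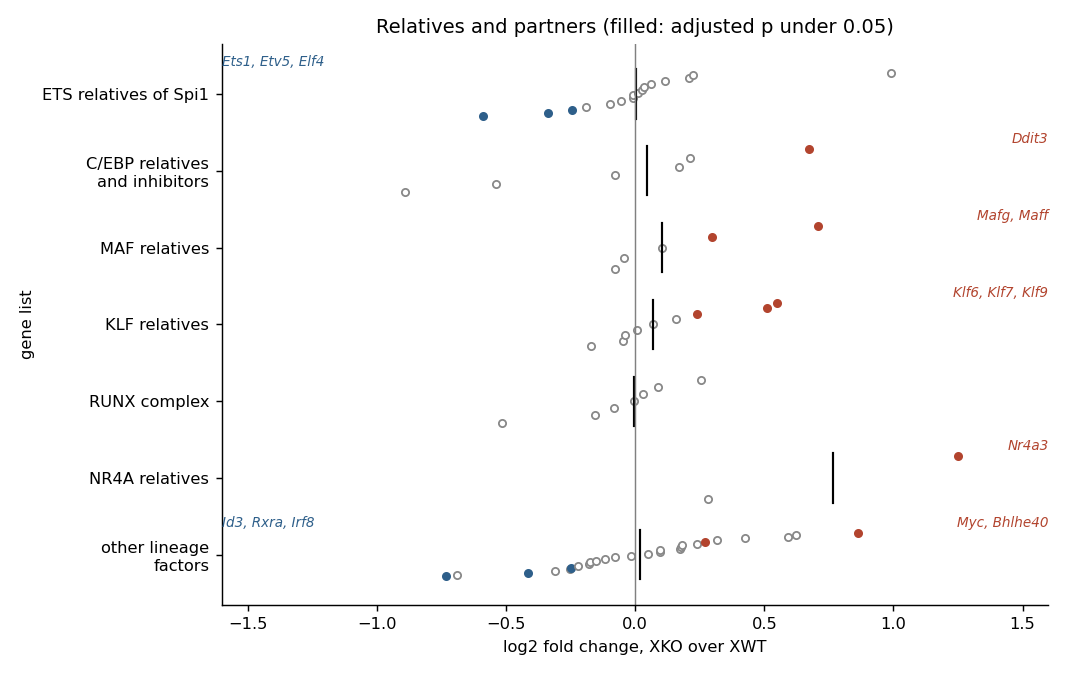
Log2 fold change, XKO over XWT (x axis), of the tested relatives and partners of the 9 factors by list, 1 point per gene, with the list median as a black bar; filled points had an adjusted p under 0.05, and their names are printed in order at the left (lower) or right (higher) margin. The called KLF, MAF, C/EBP and NR4A relatives were all higher in XKO, the 3 called ETS relatives lower, and the medians lie between -0.00 and 0.10 except for the 2 NR4A genes.

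Among 26 other tested factors of the myeloid lineage, 2 were higher and 3 lower (median 0.02). Without XWT 3 there were 1 higher and 6 lower, beside the rise in calls over all tested genes given above. Bhlhe40, a repressor of Il10, stood at 24.97, 26.6 and 24.3 CPM in XKO and at 16.4, 13.4 and 11.9 CPM in XWT, clearly apart (log2 fold change 0.86 ± 0.111, SE; edgeR adjusted p = 0.000163). Myc rose by 0.27, a call lost without any 1 library other than XWT 1. The nuclear receptor gene Rxra stood at 81.8, 81.3 and 85.6 CPM in XKO and at 113, 120 and 99.6 CPM in XWT (-0.42 ± 0.074, SE; edgeR adjusted p = 0.00233). Id3, an inhibitor of basic helix-loop-helix factors, fell by 0.73, and Irf8, a partner of PU.1 in monocytes, by 0.25. The call of Irf8 was lost without any 1 library other than XWT 3, with library size alone and with GC and length trends removed. Together, relatives, partners and lineage factors numbered 71 tested genes, of which 9 were higher, 6 lower and 56 not called (21.1% called, beside 14.0% of all tested genes), with a median of 0.02. The 9 became 4 or 5 without XKO 1, XKO 2, XKO 3 or XWT 2, and the 6 became 2 or 3 without these libraries and 10 without XWT 3.

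Nearest profiles were sought among 141 genes of the family, lineage, target and upstream lists, as the root mean square difference of log2 CPM centred on each gene's mean over the 6 libraries. For Cebpd they were Rxra (0.06), Irf8 (0.07) and Etv5 (0.08), where the median gene of the pool lay at 0.25. These genes shared with Cebpd its high XWT 2 and its lower XWT 3. For Nr4a1 they were Klf7, Maff and Klf9 (each 0.07, beside a pool median of 0.36), which were likewise highest among the XWT libraries in XWT 3.

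Upstream of the factors, 4 of 19 tested genes of receptors, ligands and signal carriers were higher and 0 lower (median -0.04). Among all tested genes, 6.00% were higher and 7.99% lower. Csf1, the growth factor of macrophages, stood at 80.9, 83.0 and 79.6 CPM in XKO and at 36.0, 26.8 and 34.5 CPM in XWT, with no XWT library near XKO (log2 fold change 1.32 ± 0.096, SE; edgeR adjusted p = 5.92e-07). Csf2ra rose by 0.32 and Csf2rb, the shared chain of the GM-CSF receptor, by 0.23 on the log2 scale. The fourth, Jak2, the kinase bound to that receptor and named after its value was seen, rose by 0.24. The 4 became 1 without XKO 1, XKO 2, XKO 3 or XWT 2, and without XWT 3 another 4 were lower.

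**Figure D3:**
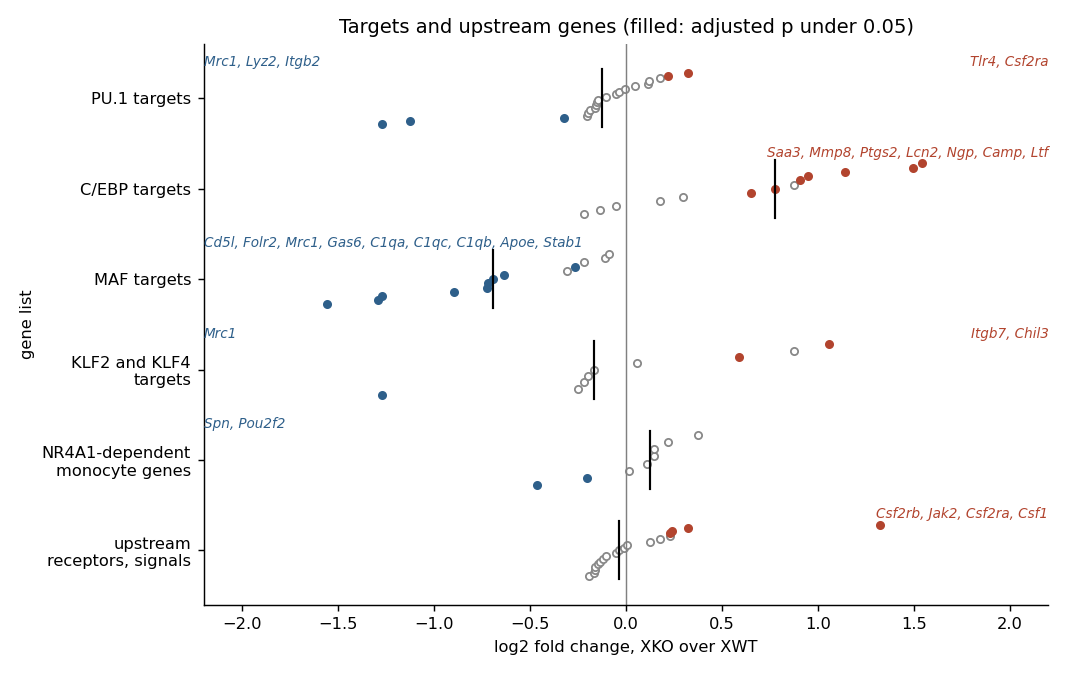
Log2 fold change, XKO over XWT (x axis), of tested target and upstream genes by list, drawn as 1 point per gene with the list median as a black bar; filled points had an adjusted p under 0.05 and are named in order at the left (lower) or right (higher) margin. C/EBP targets lie to the right (7 higher, 0 lower) and MAF targets to the left (0 higher, 9 lower).

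GC content moved with the fold changes across all genes. Over deciles of the GC content of the longest transcript, known for 14322 of the tested genes, the median log2 fold change was 0.19 in the lowest decile and -0.11 in the highest. Of the 9 factors, 7 lay above the median of 49.4% GC, and Spi1 (58.9%), Cebpa (62.6%), Cebpb (67.2%) and Klf2 (61.6%) lay in the highest decile. Spi1 at -0.22 and Cebpa at -0.20 were on the same side of 0 as the median of their decile, whereas Cebpb at 0.32 was on the other side. Nr4a1 (57.0%) and Klf4 (54.6%) had positive values in deciles whose median was -0.08, and Cebpd (51.6%) stood at -0.35 beside a decile median of -0.06. With these trends removed, an alternative chosen after seeing the data, Nr4a1 was 0.75 and Cebpd -0.29, and both remained called (edgeR adjusted p = 0.00425 and 0.0335).

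**Figure D4:**
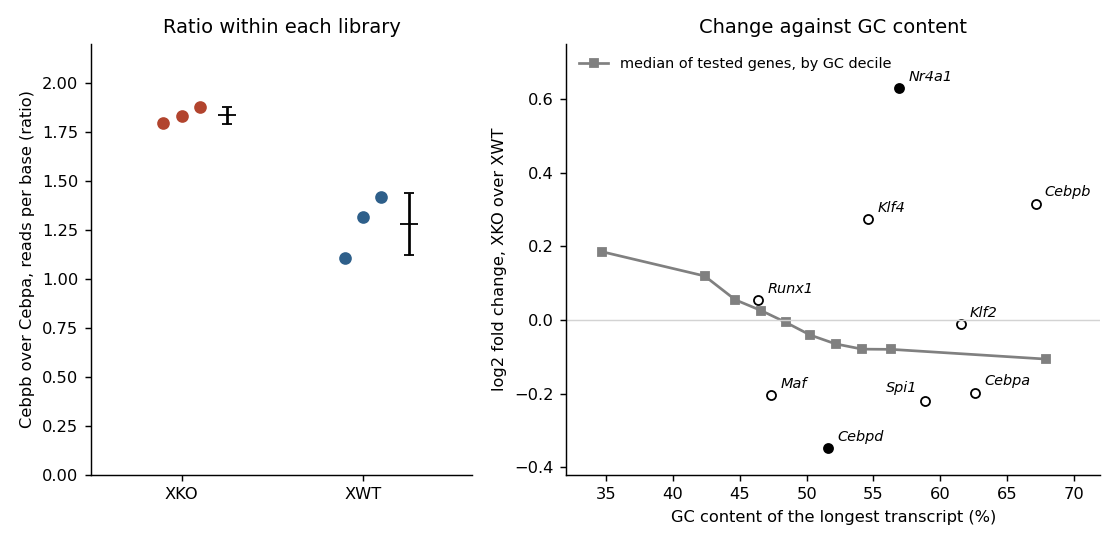
Left, the ratio of Cebpb to Cebpa in reads per base within each library (linear axis from 0), XKO left and XWT right, with mean and SD (n = 3), 1.84 in XKO against 1.28 in XWT. Right, log2 fold change of the 9 factors (y axis, filled where called) against GC content in percent (x axis). Grey squares joined by a line give the median of tested genes per GC decile, falling to -0.11 in the highest decile. Cebpb, Nr4a1, Klf4, Klf2 and Runx1 lie above that line and Spi1, Cebpa, Maf and Cebpd below it.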

How the data were processed

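RNA was sequenced from 3 XKO and 3 XWT samples, grouped by their titles. Per the labels' protocols, RNA was extracted with Trizol and libraries were made with a NEBNext Ultra RNA kit. The submitters' processing notes list Bowtie 0.12.2 and, without a role or order, the builds mm8 and mm10. How reads were counted, on which annotation and with which strand setting is not given in the sources used. The table's IDs were matched to GENCODE M21 (54409 of 54532, 98.3% of them with the same coordinates, all 9 factors included), and coordinates are printed as in the table.

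Counts are whole numbers of reads per gene, deposited by the authors without scaling, per the file headers. FPKM values are the authors' own, scaled between libraries in a way not stated; they served to compare levels between genes. The authors also deposited group means of scaled counts (a signal), log2 fold changes (XKO over XWT) and p-values with adjusted p-values, made with a tool that is not stated; the means were not used.

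Counts were tested with edgeR 4.0.16 in R 4.3.3 (filterByExpr, 14333 genes kept; TMM; robust quasi-likelihood fit without a block; 4 residual degrees of freedom), with Benjamini-Hochberg adjustment over all tested genes and a threshold of 0.05. Standard errors were taken as the absolute log2 fold change over the root of its F statistic. The biological coefficient of variation was 0.0865; for Nr4a1 and Nr4a3 counting error adds to it. Scripts were tested on simulated counts.

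The 9 factors and the 22 gene lists were chosen with earlier results of these data known. Named were Xbp1, the 9 factors, up to 3 called members in each direction per list with the smallest p, and the 3 nearest profiles of each called factor; lists without a called member are given by counts, some genes are not reported here, and other genes are marked as named after their values were seen. Alternatives were RLE factors, library size alone, no filter, at least 5 CPM in 3 libraries, DESeq2 1.42.0, limma-voom (limma 3.58.1), library quality weights, a replicate block and leaving out each library, and, added after seeing the data, removal of length and GC trends.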

Additional observations from a re-analysis of the deposited data

How the results depend on the processing

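The signs of 7 of the 9 factors held under all 15 alternatives (the stricter filter left out Nr4a1). Cebpa, at -0.20, had no direction with length and GC trends removed (-0.00). The sign of Klf2 changed: its log2 fold change of -0.01 became 0.059 with library size alone, 0.0033 with the stricter filter and 0.15 with length and GC trends removed, and ran from -0.10 to 0.12 with 1 library left out. The cause was not tested. With 1 library left out, log2 fold changes ran from -0.29 to -0.13 for Spi1, 0.16 to 0.45 for Cebpb, -0.44 to -0.24 for Cebpd, -0.28 to -0.16 for Maf and 0.58 to 0.71 for Nr4a1. The 1 higher factor became 2 with no filter, DESeq2, quality weights or the replicate block, 3 with trends removed and 0 with the stricter filter, where only 8 were tested, and ran from 0 to 1 without single libraries. The 1 lower factor became 0 with library size alone, 3 with no filter and 2 with DESeq2 or quality weights, and ran from 0 to 2. Now called were Spi1 (-0.23 with no filter, -0.22 with DESeq2, -0.23 with quality weights), Cebpb (0.31, 0.32 and 0.35 under the same settings, 0.34 with the replicate block, 0.56 with trends removed), Maf (-0.21 with no filter) and Klf4 (0.36 with trends removed); Cebpd at -0.28 with library size alone was not. Over all tested genes, 860 higher and 1145 lower (42.9% higher) became 1158 and 749 with library size alone (60.7%), 1423 and 1016 with trends removed (58.3%) and 705 and 730 with the stricter filter, which tests fewer genes; without single libraries they ran from 274 to 2073 and from 532 to 2164. The 9 higher and 6 lower relatives and lineage factors ran from 4 to 10 and from 2 to 10, and the 6 became 3 with library size alone. Of 581 alternative values for 39 other named genes, 505 kept their call, 76 lost it and 0 changed sign. Apart from Xbp1, these genes were picked by small p-values or as nearest profiles in these same data. The counts therefore do not describe the other listed genes. Same-numbered libraries did not deviate together (r from -0.05 to -0.04), so the numbers were not taken as pairs; a replicate block gave 1068 higher and 1127 lower genes. For Nr4a1, with 83 to 161 counts per library, depth limits the precision.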
